A study of Mus musculus with 6 samples.

Results

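Caspases, a gasdermin and kinases of the necroptosis pathway were examined in YUMM3.3 tumors, and the 8 genes were *Casp1*, *Casp4*, *Casp8*, *Casp9*, *Gsdmd*, *Ripk1*, *Ripk3* and *Mlkl*. They were chosen by gene symbol, each matched 1 row of the deposited table, and together they made up 8 of its 40166 genes. YUMM3.3 cells are mouse melanoma cells with mutant BRAF, injected here under the skin of C57BL/6 mice that were 8 to 10 weeks old. Tumors came from 3 mice given water (vehicle, replicates 7, 8 and 9) and from 3 mice given rigosertib (RGS) at 300 mg/kg (replicates 10, 11 and 12). The study describes RGS as a small molecule that mimics RAS and may block signaling downstream of RAS. It also mentions a dispute over whether effects on microtubules belong to RGS or to a contaminant. Both groups were dosed by oral gavage 5 days a week, and RNA was taken after 17 days. The sex of each mouse was not given in the sources used here, and all 6 tumors grew from 1 cell line. Nothing in the labels says that the tumors came from separate experiments, so p-values measure only the spread between these tumors.

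Caspases are proteases that cut their targets after aspartate. Caspase-9 starts apoptosis from damaged mitochondria and caspase-8 starts it from death receptors, whereas caspase-1 and caspase-4 (caspase-11 in older mouse nomenclature) act in inflammasomes and cut gasdermin D, whose fragment perforates the cell membrane in pyroptosis. RIPK1 and RIPK3 are kinases that, when caspase-8 is inactive, pass a signal to MLKL, the protein that ruptures the membrane in necroptosis.

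Counts assigned to genes summed to between 22793087 and 32555494 in vehicle tumors and to between 13837932 and 21617368 in RGS tumors, so each RGS library was shallower than each vehicle library. Genes of the mitochondrial genome took 2.13% to 3.20% of the counts with vehicle and 5.60% to 8.22% with RGS. A floor of 3 counts stood for 0.0922 to 0.217 CPM (counts scaled to a fixed library total), which covers counting error only. Among markers of other cell types, *Ptprc* (CD45), *Adgre1* (F4/80), *Cd3d*, *Cd3e*, *Cd3g*, *Cd8a*, *Csf3r* and *Ms4a1* had 0 counts in all 6 tumors. The melanocyte genes *Tyr*, *Dct* and *Mlana* also had 0 counts, although the tissue is labelled melanoma, and *Mitf* had 74 to 261 counts. The 6 leukocyte markers summed to 187 to 249 CPM with vehicle and 919.8 to 1028 CPM with RGS. That sum was made almost wholly of *Laptm5* and *Cd53*, since the other 4 had at most 20 counts in any tumor. With *Ptprc*, *Adgre1*, *Tyr*, *Dct* and *Mlana* at 0, the defining markers of leukocytes and of melanocytes did not bear out the label of whole melanoma tumors, and the samples are called tumors here by that label. The marker sums are therefore given as levels of the listed genes and not as amounts of cells. In bulk RNA a smaller number of cells that use a gene and less of its RNA per cell cannot be told apart.

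Of the 8 genes, 2 were lower in RGS tumors (*Casp4* and *Gsdmd*), 1 was higher (*Casp8*) and 5 did not pass the threshold. The quasi-likelihood test of edgeR was fitted to 15355 genes, p-values were adjusted over them by Benjamini-Hochberg, and an adjusted p under 0.05 was the threshold. All 8 genes passed the filter on low counts, a median of at least 5 counts in at least 1 group. Over all genes tested, 16.5% were called lower and 16.3% higher, 32.8% in either direction, so the 3 of 8 called here is near the background. Their median log2 fold change was -0.07, beside -0.05 over all genes tested. CPM values did not overlap between the groups for the 3 called genes and did for the other 5, whereas non-overlap was seen for 45.8% of all genes tested.

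**Figure D1:**
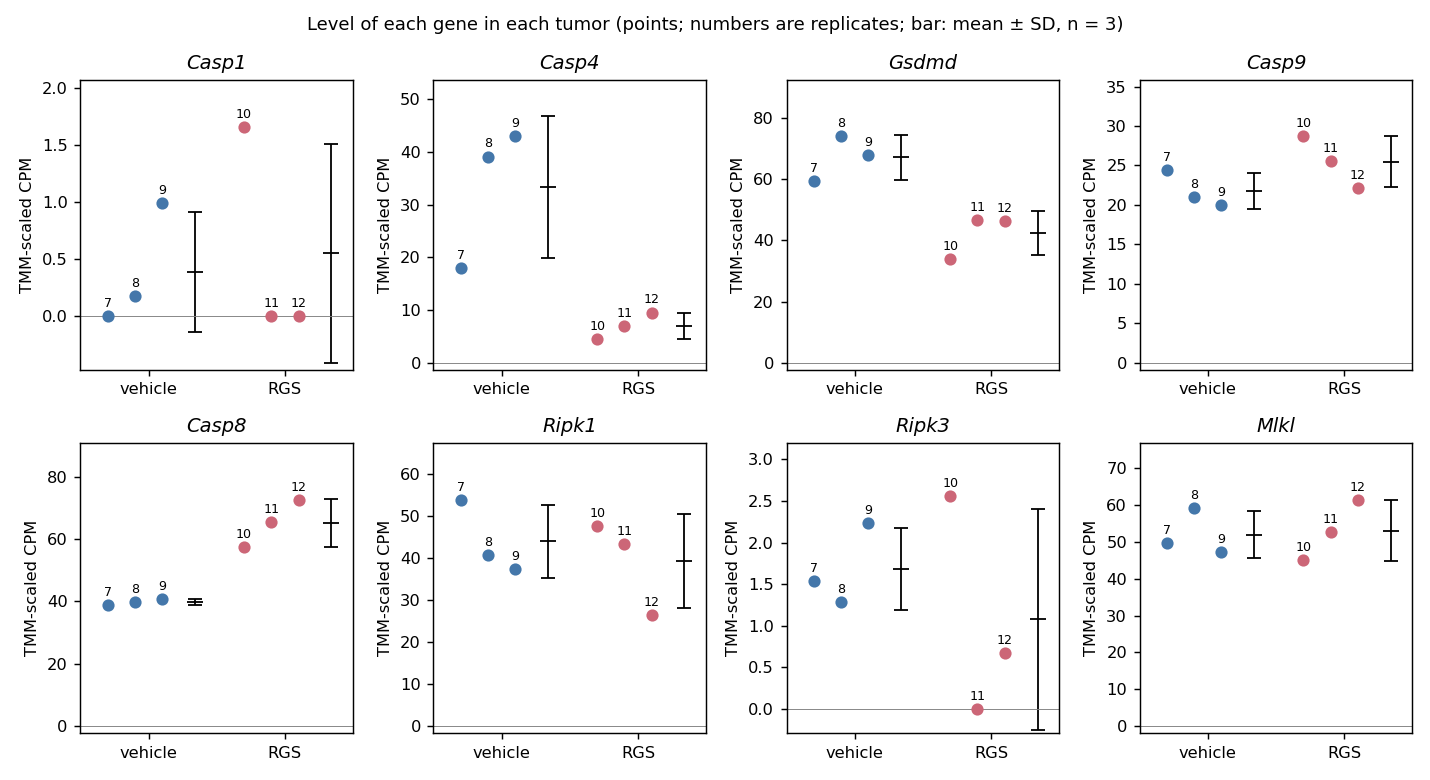
Each panel plots 1 gene's CPM (on the TMM-scaled library, linear axis) in the 3 vehicle and 3 RGS tumors, numbered by replicate, with the mean and SD beside the points. *Casp4* and *Gsdmd* were lower and *Casp8* higher in every RGS tumor than in any vehicle tumor, and the groups overlapped in the other 5 panels.

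*Casp1*, *Casp4* and the related *Casp12* lie side by side on the plus strand of chromosome 9 of GRCm38. *Casp1* (ENSMUSG00000025888.5) runs from 5298517 to 5307265 and *Casp4* (ENSMUSG00000033538.13) from 5308828 to 5336783, with 1562 bases between them. Another 8646 bases separate *Casp4* from *Casp12*, a caspase linked to the endoplasmic reticulum. The stretch that encodes the catalytic cysteine was located in these genes and in the initiator caspases by a fixed pattern of codons. In the lines below, from GENCODE M21 transcripts, 27 coding bases are given from 5′ to 3′, and capitals mark the 5 codons around the cysteine codon, which is the middle one.
Casp1: attattCAGGCATGCCGTGGAgagaaa
Casp4: attgtgCAGGCCTGCAGAGGTgggaac
Casp12: atcatgCAGGCCTGCAGAGGCagatat
Casp8: ttcattCAGGCTTGCCAAGGAagtaac
Casp9: ttcatcCAGGCCTGCGGTGGTgagcag
*Casp4* and *Casp12* shared 20 of the 27 bases, and the other 9 pairs shared 16 to 19. Part of this was set by the search, because the pattern required some of the bases in capitals to be the same in every gene. *Casp1* shared 19 bases with *Casp4*, 19 with *Casp9* and 16 with *Casp12*. None of the 50-base words of *Casp1* or *Casp12* transcripts occurred in another gene, and 0.240% of those of *Casp4* did, in a predicted gene with 0 counts in all tumors.

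*Casp4*, the sensor of cytosolic lipopolysaccharide, was the called gene with the largest difference among the 8. It had 629, 1099 and 1000 counts in vehicle tumors and 97, 93 and 156 in RGS tumors. Scaled to depth, these were 18.0, 39.2 and 43.0 CPM against 4.59, 7.01 and 9.54 CPM. The highest RGS tumor stood below the lowest vehicle tumor, and vehicle replicate 7 lay well below the other two vehicle tumors. The mean was 33.4 ± 13.5 CPM (SD, n = 3) with vehicle and 7.05 ± 2.48 CPM with RGS. This was 4.75-fold lower with RGS, a log2 fold change of -2.25 (SE 0.33, 95% interval -2.94 to -1.56, edgeR adjusted p = 4.0e-05).

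*Casp12* showed nearly the same size of change, with 1698, 1519 and 1554 counts in vehicle tumors and 274, 148 and 151 in RGS tumors (log2 fold change -2.34, SE 0.22, edgeR adjusted p = 2.1e-07). *Casp1*, which lies beside *Casp4* and cuts pro-interleukin-1β, was hardly detected. It had 0, 5 and 23 counts with vehicle and 35, 0 and 0 with RGS, so that 3 of the 6 tumors had none, and no tumor exceeded 1.66 CPM. Its fitted log2 fold change of 0.55 came with an SE of 1.74 and an interval of -3.09 to 4.19 (edgeR adjusted p = 0.839), and it turned to -6.20 without RGS replicate 10. The values within each group spread too widely for the sign of a difference in *Casp1* to be given.

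**Figure D2:**
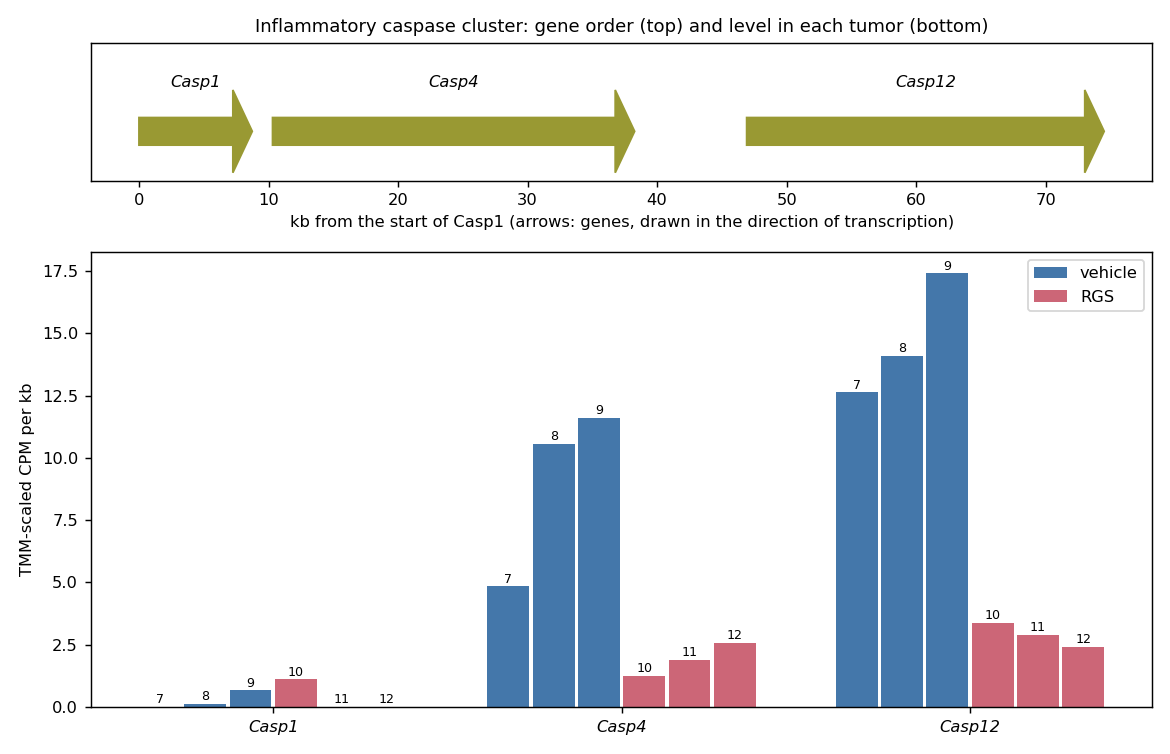
The upper panel draws *Casp1*, *Casp4* and *Casp12* to scale in kb from the start of *Casp1*, and the bars below give each gene's CPM per kb of exon in each tumor, numbered by replicate. *Casp4* and *Casp12* bars of the RGS tumors are all shorter than those of the vehicle tumors, while *Casp1* stayed at or under 1.11 CPM per kb throughout.

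The log2 ratio of *Casp4* to *Casp1* per length was 8.99, 6.33 and 4.10 in vehicle tumors and 0.15, 6.24 and 6.98 in RGS tumors (0.5 counts added). In vehicle replicate 7 and RGS replicates 11 and 12 *Casp1* had 0 counts. Those values rest on the added 0.5 counts and are not measured ratios, so the test below cannot decide whether the ratio differed. The groups overlapped, and the difference of -2.02 had a two-sided exact permutation p of 0.6, with 0.1 the smallest that 3 against 3 tumors allow. Across the 6 tumors, the genes whose profile was nearest to that of *Casp4* were *Rpl22l1* (distance 0.466 on the centred log2 CPM scale), the pseudogene *Rpl17-ps5* (0.530) and *N4bp2l1* (0.565). The distance includes the difference between the groups, so it favors genes that fell about as much (edgeR log2 fold changes -2.19, -2.41 and -2.36). Shared regulation with *Casp4* was not tested. The count of *Rpl17-ps5* is uncertain, since pseudogenes of ribosomal proteins share reads with other copies.

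*Gsdmd* (ENSMUSG00000022575.5, chromosome 15, 75862327 to 75867408, plus strand) encodes gasdermin D, the pore-forming target of caspase-1 and caspase-4. It had 2086, 2077 and 1580 counts with vehicle and 718, 620 and 759 with RGS, which were 59.5, 74.0 and 67.9 CPM against 33.99, 46.7 and 46.4 CPM. All RGS tumors were below all vehicle tumors, with RGS replicate 10 the lowest. The mean moved from 67.2 ± 7.27 CPM (SD, n = 3) to 42.4 ± 7.27 CPM, a log2 fold change of -0.67 (SE 0.18, interval -1.05 to -0.28, edgeR adjusted p = 0.00932). This call did not hold without vehicle replicate 8 (log2 fold change -0.57, adjusted p = 0.0742) or without RGS replicate 10 (-0.53, adjusted p = 0.0583).

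Of 10 other genes of gasdermins and membrane rupture, 2 passed the filter and 6 had 0 counts in all tumors. *Ninj1*, which breaks the membrane after the pores form, was higher with RGS (log2 fold change 0.43, edgeR adjusted p = 0.0435), but it lost that call in 9 of 16 alternative settings. *Gsdme*, another pore-forming gasdermin, had a log2 fold change of -0.52 and did not pass (adjusted p = 0.133).

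*Casp8* (ENSMUSG00000026029.14, chromosome 1, 58795374 to 58847503, plus strand) was the gene that was higher. It had 1357, 1119 and 948 counts in vehicle tumors and 1213, 870 and 1187 in RGS tumors. Scaled to depth, the vehicle tumors lay close together at 38.7, 39.9 and 40.8 CPM, while the RGS tumors had 57.4, 65.5 and 72.6 CPM. The lowest RGS tumor was thus above the highest vehicle tumor, although raw counts overlapped because the RGS libraries were shallower. The mean was 39.8 ± 1.02 CPM (SD, n = 3) with vehicle and 65.2 ± 7.60 CPM with RGS, 1.64-fold higher (log2 fold change 0.71, SE 0.17, interval 0.35 to 1.08, edgeR adjusted p = 0.00381). Of the 50-base words of its transcripts, 4.37% occurred in the predicted gene *Gm20257*, which had 2 to 19 counts in any tumor.

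*Cflar* encodes c-FLIP, the catalytically inactive relative that holds caspase-8 in check, and it lies 36489 bases from *Casp8*. Its level was 156.2 ± 16.1 CPM with vehicle and 149.1 ± 19.4 CPM with RGS (log2 fold change -0.07, interval -0.40 to 0.26, edgeR adjusted p = 0.783). Per length, the ratio of *Casp8* to *Cflar* was 0.970, 1.18 and 1.22 in vehicle tumors and 1.47, 2.10 and 2.29 in RGS tumors. The groups did not overlap, and the difference was 0.78 on the log2 scale. Its two-sided exact permutation p was 0.1, the smallest possible with 3 against 3, and 0.3 after adjustment over the 3 ratios tested.

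Over all genes tested, 16.5% were called lower and 16.3% higher. Of 24 other genes of the death receptor complex, 22 passed the filter, of which 5 were lower, 1 was higher and 16 did not pass the test, with a median log2 fold change of -0.08. Without vehicle replicate 8 or without RGS replicate 12, 3 of them were called lower, and 3 were called higher without vehicle replicate 7 and 2 without RGS replicate 10. DESeq2 called 2 and limma voom 5 of them higher, and with library size only 8 were lower. *Fas*, the death receptor that recruits caspase-8, was the most reduced of them, from 257, 345 and 495 counts to 39, 26 and 15 (log2 fold change -3.11, SE 0.46, edgeR adjusted p = 4.5e-05). *Tnfrsf10b*, the mouse TRAIL receptor, fell by 0.57 on the log2 scale (edgeR adjusted p = 0.0241). *Rnf31*, the catalytic subunit of the linear ubiquitin ligase that acts on RIPK1, fell by 0.80, and *Otulin*, the protease that removes those linear chains, rose by 0.79 (adjusted p = 0.00469 and 0.00311). *Fadd*, which joins *Fas* to caspase-8, had a log2 fold change of -0.06 (adjusted p = 0.897), and *Fasl* had 0 counts in all tumors.

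*Casp9* (ENSMUSG00000028914.13, chromosome 4, 141793612 to 141815976, plus strand) encodes the protease of the apoptosome. It had 854, 588 and 466 counts with vehicle and 606, 340 and 362 with RGS, or 24.4, 20.95 and 20.04 CPM against 28.7, 25.6 and 22.1 CPM. The groups overlapped, and the log2 fold change of 0.23 did not pass (interval -0.23 to 0.68, edgeR adjusted p = 0.460). In the antisense direction 94 of its exon bases are shared with *Cela2a* and *Ctrc*, which had at most 1 count.

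The 9 other genes of the apoptosome and the inhibitors of apoptosis all passed the filter, with 3 lower, 0 higher and a median log2 fold change of 0.38. At an unadjusted p under 0.05, 0 were higher too, DESeq2 called 0 higher and limma voom called 2. The shares called over all genes tested were 16.5% lower and 16.3% higher. The 3 lower genes were *Birc5* (survivin, also needed in mitosis) at -1.24, *Birc2* (cIAP1, a ubiquitin ligase for RIPK1) at -1.11 and *Htra2* (a mitochondrial protease that counters the inhibitors) at -0.74. Among 6 other caspases, 5 passed the filter and 3 were lower. Besides *Casp12* they included *Casp2*, an initiator caspase, at -0.55 (edgeR adjusted p = 0.0371). The call of *Casp2* was lost in 5 of 6 fits that left out 1 tumor and held only without RGS replicate 11 (edgeR adjusted p of the others 0.0513 to 0.120). The executioner *Casp6* had a log2 fold change of 0.01 and did not pass (edgeR adjusted p = 0.977).

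*Ripk1* (ENSMUSG00000021408.15, chromosome 13, 34002363 to 34037147, plus strand) is the kinase shared by survival, apoptosis and necroptosis. It had 1887, 1139 and 871 counts with vehicle and 1006, 576 and 433 with RGS, or 53.9, 40.6 and 37.4 CPM against 47.6, 43.4 and 26.5 CPM. The lowest tumor was RGS replicate 12, and the groups overlapped (log2 fold change -0.17, interval -0.63 to 0.30, edgeR adjusted p = 0.609). Its count is less certain than the others, because 241 of its 8344 exon bases (2.89%) lie antisense to *Serpinb6a*, which had 5002 to 16171 counts, and the strand setting of the counting was not given in the sources used here. Another 511 exon bases lie in a pseudogene on the same strand.

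*Ripk3* (ENSMUSG00000022221.14, chromosome 14, 55784995 to 55788865, minus strand), the kinase that commits a cell to necroptosis, was scarce. It had 54, 36 and 52 counts with vehicle and 54, 0 and 11 with RGS, or 1.54, 1.28 and 2.24 CPM against 2.56, 0 and 0.673 CPM. RGS replicate 10 held the highest value of the 6 and RGS replicate 11 the lowest, so the groups overlapped (log2 fold change -0.62, SE 1.10, interval -2.92 to 1.67, edgeR adjusted p = 0.706). The log2 ratio of *Ripk3* to *Ripk1* per length had means of -2.85 and -4.67 in vehicle and RGS tumors (difference -1.83, two-sided exact permutation p = 0.4), and the difference was -0.011 when the tumor with 0 *Ripk3* counts was left out.

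*Mlkl* (ENSMUSG00000012519.14, chromosome 8, 111311797 to 111338177, minus strand), the membrane effector, had 1738, 1658 and 1098 counts with vehicle and 950, 700 and 1004 with RGS. These were 49.6, 59.1 and 47.2 CPM against 44.98, 52.7 and 61.4 CPM. Values of both groups were interspersed (log2 fold change 0.03, interval -0.35 to 0.41, edgeR adjusted p = 0.921), and the sign of this near-zero value changed with the scaling.

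**Figure D3:**
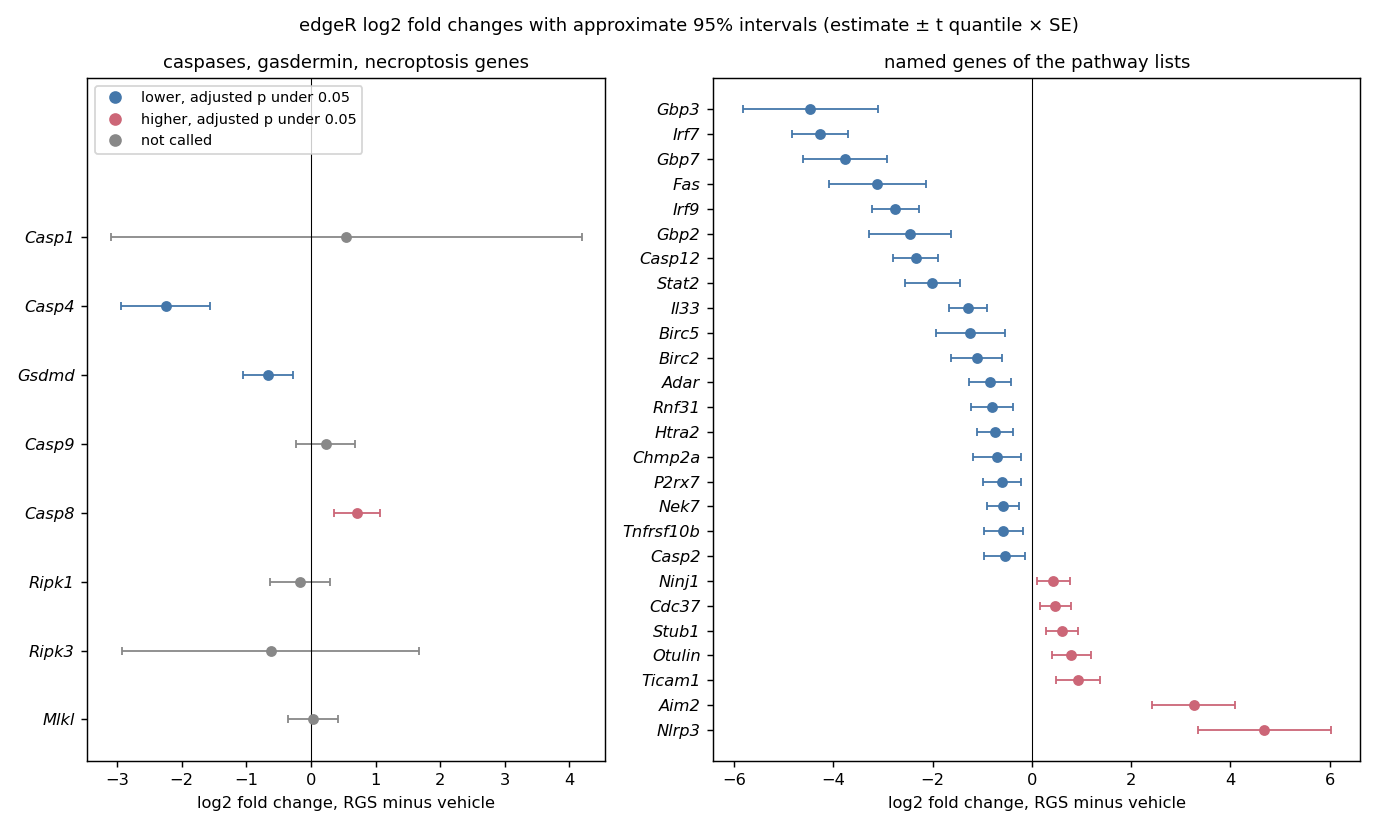
The points are edgeR log2 fold changes (RGS minus vehicle, 3 against 3 tumors) and the bars approximate 95% intervals, for the 8 genes on the left and for 26 other pathway genes named by rule on the right. Among the 8 genes the intervals of *Casp4*, *Gsdmd* and *Casp8* exclude 0, and those of *Casp1* and *Ripk3* are the widest.

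Levels can be compared between genes only per length of exon. On the scale of CPM per kb, the order in vehicle tumors was *Gsdmd* (28.3 ± 3.06, SD, n = 3), *Mlkl* (22.6 ± 2.73), *Casp8* (13.8 ± 0.35), *Casp4* (8.99 ± 3.64), *Ripk1* (5.27 ± 1.04), *Casp9* (4.19 ± 0.44), *Ripk3* (0.736 ± 0.215) and *Casp1* (0.260 ± 0.352). In that order the tumors' values overlapped between *Gsdmd* and *Mlkl*, between *Casp4* and *Ripk1*, between *Ripk1* and *Casp9*, and between *Ripk3* and *Casp1*. In RGS tumors *Mlkl* (23.0 ± 3.57) and *Casp8* (22.5 ± 2.63) came first with overlapping values, followed by *Gsdmd* (17.8 ± 3.06), *Casp9* (4.90 ± 0.63), *Ripk1* (4.69 ± 1.34), *Casp4* (1.90 ± 0.67), *Ripk3* (0.470 ± 0.578) and *Casp1* (0.369 ± 0.639). The RGS tumors' values also overlapped between *Casp9* and *Ripk1* and between *Ripk3* and *Casp1*. Thus *Mlkl* had a mean level of 22.6 and its upstream kinase *Ripk3* one of 0.736 CPM per kb with vehicle. By its mean, *Casp4* moved from the fourth place, where its values overlapped those of *Ripk1*, to the sixth with RGS.

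The genes that feed these pathways moved in both directions. Of 9 triggers and regulators of necroptosis, 3 were lower and 4 were higher (median log2 fold change 0.31), and 2 were higher without RGS replicate 11 or without RGS replicate 12. The shares called over all genes tested were 16.5% lower and 16.3% higher. *Zbp1*, the sensor of Z-form nucleic acids that engages RIPK3, had 55, 39 and 40 counts with vehicle and 0, 0 and 0 with RGS, which makes it at least 8.48-fold lower against a floor of 3 counts per library (edgeR adjusted p = 0.00283). It was named after its values were seen. *Zbp1* passed the filter only through the vehicle tumors, so its direction adds no support to the number called lower. *Adar*, which edits the RNA that ZBP1 would bind, fell by 0.84, and *Chmp2a*, of the membrane repair complex ESCRT-III, fell by 0.70 on the log2 scale. The CPM values of *Chmp2a* overlapped between the groups, and its call was lost in 4 of 6 fits that left out 1 tumor (edgeR adjusted p up to 0.150, with a log2 fold change of -0.41 without vehicle replicate 9). *Ticam1* (TRIF, which links Toll-like receptors to RIPK1 and RIPK3) rose by 0.94, *Stub1* (a ubiquitin ligase for RIPK3) by 0.61, *Cdc37* (a kinase co-chaperone) by 0.48 and *Chmp4b* by 0.43 (edgeR adjusted p from 0.00217 for *Ticam1* to 0.0339 for *Chmp4b*, which was named after its values were seen).

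Of 16 inflammasome sensors and adaptors, 11 passed the filter, 4 were lower and 2 were higher, and without a single tumor 1 to 3 were lower (1 without vehicle replicate 8 or RGS replicate 12, and 2 without RGS replicate 10). The median log2 fold change was -0.58 as fitted and -0.11 with the 3 genes at 0 counts in RGS tumors set to their bounds. Over all genes tested, 16.5% were called lower and 16.3% higher. *Nlrp3*, a sensor of membrane damage, had 8, 8 and 5 counts with vehicle and 153, 83 and 92 with RGS (log2 fold change 4.68, SE 0.64, edgeR adjusted p = 1.8e-05). *Aim2*, a sensor of cytosolic DNA, had 48, 40 and 56 against 215, 251 and 335 counts (log2 fold change 3.26, SE 0.40, edgeR adjusted p = 5.1e-06). *Pycard* (ASC), the adaptor that joins both sensors to caspase-1, had 11, 40 and 18 counts with vehicle and 0, 0 and 0 with RGS. This was at least 4.56-fold lower (edgeR adjusted p = 0.0153), and *Pycard* too was named after its values were seen. *P2rx7*, the ATP-gated channel upstream of NLRP3, fell by 0.60 and *Nek7*, its kinase partner, by 0.58 on the log2 scale. The fourth lower gene, *Naip2*, had 11, 30 and 4 counts against 0, 0 and 0, and was also named after its values were seen. *Pycard* and *Naip2* passed the filter only through the vehicle tumors, so their direction adds no support to the number called lower. With filterByExpr in place of the median filter, 2 genes of this list were called lower.

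Of the 6 inflammasome cytokines and their inhibitors, *Il1b* had 0 counts in all tumors, and *Il18* had a log2 fold change of -0.59 and did not pass (edgeR adjusted p = 0.436). *Il33*, an alarmin that caspases inactivate, was lower, with 3139, 2332 and 2153 against 913, 399 and 578 counts (log2 fold change -1.29, SE 0.18, edgeR adjusted p = 2.3e-05). *Il1a* was called higher (edgeR adjusted p = 0.0158) on 2, 1 and 2 counts against 14, 26 and 32, a log2 fold change of 4.57 with an interval of 1.68 to 7.46. The depth-scaled ratio of its pooled counts was 24.5, with a 95% exact interval of 10.03 to 77.8 that covers counting error only and not the spread between tumors. It was named after its values were seen, and its call was lost without vehicle replicate 7 or 8 and without RGS replicate 11 or 12. *Il1a* passed the filter only through the RGS tumors, so being tested depended on its higher counts there.

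**Figure D4:**
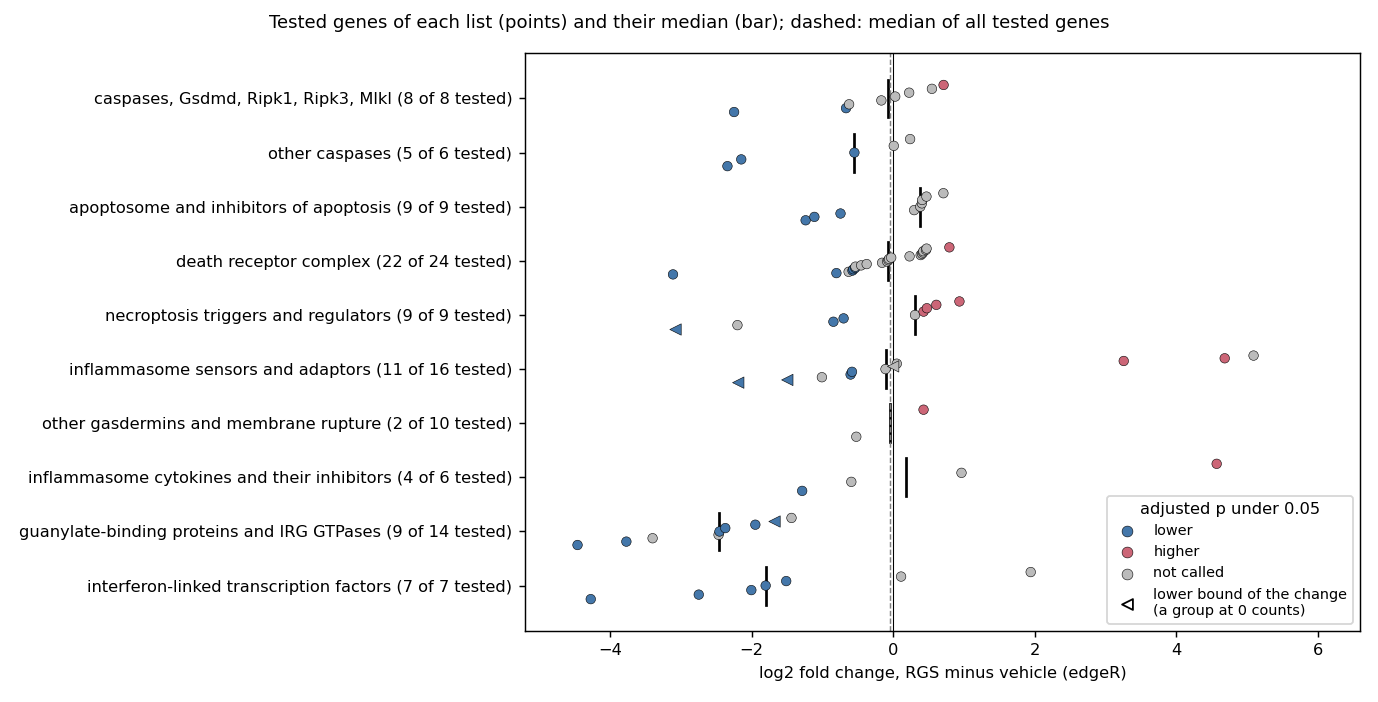
Each point is the edgeR log2 fold change of 1 tested gene, grouped by list and coloured by its call, triangles are bounds for genes at 0 counts in a group, and bars are list medians. The guanylate-binding protein and transcription factor lists have medians of -2.45 and -1.80, left of the all-gene median of -0.05 (dashed), while the first row, with the 8 genes, is centred at -0.07. In the guanylate-binding protein list *Gbp3*, *Gbp4*, *Gbp5* and *Gbp9* passed the filter only through the vehicle tumors. In other rows the same held for *Casp1*, *Tnf*, *Zbp1*, *Tlr3*, *Nlrc4*, *Naip2*, *Naip5* and *Pycard*, while *Naip1* and *Il1a* passed only through the RGS tumors.

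Guanylate-binding proteins (GBPs) and IRG GTPases are interferon-induced proteins that coat bacteria and expose lipopolysaccharide to caspase-4. Of 14 genes listed, 9 passed the filter. Of these, edgeR called 6 lower and 0 higher, and 8 lower and 0 higher at an unadjusted p under 0.05, while DESeq2 and limma voom each called 0 higher. The RGS tumors lay below the vehicle tumors without overlap for all 9, and for 24.0% of all genes tested. The shares called by edgeR over all genes tested were 16.5% lower and 16.3% higher. *Gbp3*, *Gbp4*, *Gbp5* and *Gbp9* had a median under 5 counts with RGS and passed the filter only through the vehicle tumors. Being tested thus depended on their high vehicle counts, so their direction adds no support to the numbers called lower or not overlapping. *Gbp3* had 661, 514 and 419 counts with vehicle and 43, 0 and 4 with RGS (log2 fold change -4.46, SE 0.65, edgeR adjusted p = 3.8e-05). *Gbp7* and *Gbp2* fell by 3.77 and 2.45 on the log2 scale. Among 7 interferon-linked transcription factors, 5 were lower, with *Irf7* at 1411, 972 and 894 counts against 38, 30 and 30 (log2 fold change -4.27, SE 0.27, edgeR adjusted p = 1.3e-09), *Irf9* at -2.75 and *Stat2* at -2.003. *Irf2* had a log2 fold change of 0.11 and did not pass (adjusted p = 0.670). *Irf8* went the other way but did not pass either, with 11, 3 and 13 against 27, 4 and 36 counts (log2 fold change 1.94, edgeR adjusted p = 0.245).

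Promoter windows of equal length around RefSeq starts (GRCm38.p6) were searched on both strands for the core of the interferon-stimulated response element (GAAA, any 2 bases, GAAA), for the STAT site TTCNNNGAA and for the NF-kappaB consensus. Windows were found for *Casp1*, *Casp4*, *Casp8*, *Casp9*, *Ripk1*, *Ripk3* and *Mlkl*. The first motif was present at 3.99% of 27025 genes, the second at 9.55% and the third at 5.14%. *Casp4* held an NF-kappaB match and neither of the other motifs. *Ripk1* held the first motif, and the second one at 2 positions, 1 of which overlaps it. The other 5 held none. Of the 8 GBP and IRG genes with a window, 8 held the first motif and 4 the second. The lines below show the *Casp4* and *Ripk1* matches beside those of the 3 GBPs named above, each on the plus strand of GRCm38.p6 with the match in capitals (the first motif reads TTTC, 2 bases, TTTC where it lies on the other strand).
Casp4, NF-kappaB, chr9:5308746-5308775: atgagttacaGGGGATTTCCccacagcagt
Ripk1, chr13:34002859-34002888: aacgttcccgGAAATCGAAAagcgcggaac
Gbp2, chr3:142620594-142620623: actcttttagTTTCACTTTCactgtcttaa
Gbp3, chr3:142559995-142560024: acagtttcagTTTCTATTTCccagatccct
Gbp7, chr3:142530273-142530302: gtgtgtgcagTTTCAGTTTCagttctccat
A match of letters does not show that a factor binds there. Of the 6 interferon-linked transcription factors with a window, 2 held the first motif and 3 the second. Whether any of these motifs had a part in the differences was not tested.

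Over the 9 lists together, 78 of 101 genes passed the filter, of which 30 were lower, 9 were higher and 39 did not pass the test, beside 16.5% lower and 16.3% higher of all genes tested. The guanylate-binding protein and transcription factor lists held 6 and 5 of the lower genes. The lower *Gbp3*, *Gbp5*, *Zbp1*, *Pycard* and *Naip2* passed the filter only through the vehicle tumors, and the higher *Il1a* only through the RGS tumors. Their direction adds no support to these numbers. Marker genes moved in the same comparison. The leukocyte sum of the RGS tumors lay above that of the vehicle tumors, and so did the endothelial sum (0.946 to 1.20 CPM with vehicle and 3.24 to 11.2 CPM with RGS) and the keratinocyte sum (0.400 to 1.72 and 6.77 to 22.8 CPM). Each of these rested on few genes. *Cdh5*, with 24, 7 and 17 against 120, 36 and 167 counts, was the only endothelial marker called, and *Emcn* was at 0 in all tumors. *Ivl*, with 0, 0 and 0 against 124, 151 and 321 counts, was the only keratinocyte marker called, while *Krt5*, *Krt14*, *Krt1* and *Dsg3* had at most 2 counts. The fibroblast sum was lower (375.0 to 571.9 CPM with vehicle and 276.6 to 305.0 CPM with RGS), but its 6 genes did not move together. *Col1a2*, *Pdgfra* and *Pdgfrb* were lower, *Dcn* was higher (20, 39 and 34 against 209, 87 and 256 counts, edgeR adjusted p = 6.2e-05), *Col1a1* had a log2 fold change of 0.10 and did not pass, and *Lum* was at 0. The macrophage sum, nearly all *Cd68*, was 58.9 to 64.7 CPM with vehicle and 65.4 to 88.2 CPM with RGS. The dendritic cell sum was 5.68 to 8.51 CPM with vehicle and 8.21 to 14.3 CPM with RGS, but its genes did not move together. *Flt3* was called higher (21, 0 and 2 against 135, 87 and 176 counts, edgeR adjusted p = 1.5e-04). *Zbtb46* was lower in CPM without overlap (175, 217 and 196 against 105, 16 and 56 counts) and did not pass (edgeR adjusted p = 0.0919). The melanocytic sum was 4.94 to 7.68 CPM with vehicle and 4.53 to 10.5 CPM with RGS. Sums of neutrophil, B cell and T and NK cell markers were at most 1.42 CPM in any tumor. Of these markers only *Trac* was called, higher with RGS (0, 0 and 0 against 30, 16 and 10 counts). *Trac*, *Ivl* and *Flt3* passed the filter only through the RGS tumors, so being tested depended on their higher counts there. The part of the marker genes' cell types, of depth and of the mitochondrial share in the differences of *Casp4*, *Gsdmd* and *Casp8* was not tested. The calls of these 3 genes were the same with mitochondrial genes left out and with counts thinned to the smallest library. Each RGS tumor had a higher mitochondrial share than each vehicle tumor, so leaving those genes out cannot tell that share apart from treatment.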

How the data were processed

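Bulk RNA sequencing was analysed for 3 vehicle and 3 RGS tumors. The deposited table holds the authors' read counts for each gene, unnormalised, with 1 column per tumor. Reads were paired-end with 150 bases, and the submitters' processing notes name cutadapt 1.18, FastQC 0.11.7, STAR 2.7.1a, featureCounts 1.6.4 and the build mm10. The annotation, the strand setting and the handling of multi-mapped reads were not given in the sources used here, although the 38927 gene identifiers also found in GENCODE M21 had identical positions and exon lengths.

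Genes whose counts had a median of 5 or more in either group were tested in R 4.3.3 with edgeR 4.0.16 (TMM factors, quasi-likelihood F test, Benjamini-Hochberg adjustment). Alternatives used DESeq2 1.42.0, limma 3.58.1 (voom with quality weights), other factors, filters and thresholds, mitochondrial genes left out, thinned counts, and each tumor left out. Chi-square per degree of freedom between libraries of a group was 18.5 or more, so each tumor was kept as a replicate. On simulated data with 184 changed genes among 14595, edgeR recovered 70.3% of 4-fold and 52.7% of 2-fold changes, with 8.13% false calls. DESeq2 recovered 71.4% and 49.5%, with 17.2% false calls. The simulated share of changed genes was far below the 32.8% called in the data, so these rates need not hold for the data.

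Besides the 8 genes, up to 3 genes in each direction of each pathway list were named, by absolute log2 fold change among called genes with a mean of at least 1 CPM, and the 3 genes with the profile nearest to *Casp4*. Pathway genes that did not pass the test, and those marked so in the text, were picked with their values in view. Some members of the lists are not reported here by name. The genes and lists were chosen with earlier results of these data known. CPM per kb used the deposited gene lengths, and sequences came from GENCODE M21 and RefSeq.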

Additional observations from a re-analysis of the deposited data

How the results depend on the processing

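The calls of *Casp4* (log2 fold change -2.56 to -2.01, adjusted p at most 0.00144) and *Casp8* (0.57 to 0.79, adjusted p at most 0.0295) were kept in all 16 alternative fits, and that of *Gsdmd* in 14 (-0.76 to -0.53 with 1 tumor left out, the call being lost without vehicle replicate 8 or RGS replicate 10). Genes called lower among the 8 numbered 1 to 2 with 1 tumor left out, against 2 with all tumors, and 1 when a 2-fold difference was required, when 0 were called higher. Genes not called changed sign in some fits. *Casp1* had -0.82 with voom and -6.20 to 1.10 with 1 tumor left out, and no value with filterByExpr, with thinned counts or without vehicle replicate 9, where it did not pass the filter. *Ripk1* had -0.34 to 0.031 with 1 tumor left out. *Mlkl* had -0.10 with voom, -0.0088 with upper-quartile factors, -0.12 with library size only, -0.0055 with thinned counts and -0.11 to 0.15 with 1 tumor left out. The difference in the *Casp4* to *Casp1* ratio was -3.28 to 0.13 on the log2 scale with 1 tumor left out. Without a pseudocount that ratio and the one of *Ripk3* to *Ripk1* could not be computed, because of 0 counts. Genes of the 9 lists called higher numbered 15 with voom and 5 to 10 with 1 tumor left out, against 9, the 5 being without RGS replicate 11 or 12. Among other named genes, *Tnfrsf10b* lost its call without vehicle replicate 7 or 8 and without RGS replicate 10 or 12 (adjusted p 0.0513 to 0.0881), *Chmp2a* without vehicle replicate 8 or 9 and without RGS replicate 10 or 11 (0.0537 to 0.150), *P2rx7* without vehicle replicate 8 or RGS replicate 12 (0.0553 and 0.0810), and *Cdc37* without RGS replicate 11 or 12 (0.0677 and 0.131) and with library size only (0.0968). For library size only, 62.8% of all calls were lower, against 50.3%, and the median of all genes was -0.19 against -0.05. No paired analysis was possible because the replicate numbers 7 to 12 are not shared between the groups. *Casp1* and *Ripk3* had at most 35 and 54 counts, and their values spread widely within a group. For none of these changes was the cause tested.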
